A study of Arabidopsis thaliana with 13 samples.

Results

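Pifithrin-alpha (PFT-alpha) was compared with mock treatment in dark-grown Arabidopsis thaliana seedlings of the ethylene-insensitive mutant etr1-1, using all 4 etr1-1 libraries of a series of 13. Wild-type Col-0 and etr1-1 seedlings had white light for 6 h and were then kept dark for 4 days at 22 °C. They spent a further 4 h in liquid medium, and RNA of whole seedlings was sequenced after polyA selection. The 2 etr1-1 PFT-alpha libraries received 30 µM PFT-alpha, and the 2 etr1-1 mock libraries received DMSO at 1‰ by volume. Whether the PFT-alpha medium also held DMSO is not stated in the labels. The 9 wild-type libraries, 3 each of mock, 30 µM PFT-alpha and 10 µM ACC (the compound from which plants make ethylene), served for the spread between replicates and as a reference.

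ETR1 is an ethylene receptor. Without ethylene the receptors keep the kinase CTR1 active, CTR1 holds back the membrane protein EIN2, and the transcription factors EIN3 and EIL1 are broken down through the F-box proteins EBF1 and EBF2. Ethylene switches the receptors off, EIN3 accumulates and its target genes are transcribed, which in dark-grown seedlings gives the triple response of a short, thick hypocotyl and an exaggerated apical hook. The etr1-1 allele is a dominant amino acid change that prevents ethylene binding, so the mutant receptor keeps signalling off throughout the plant. PFT-alpha is best known for blocking p53, a tumour suppressor of animals that plants lack. The comparison in etr1-1 asks which transcripts differ under PFT-alpha when ethylene cannot be sensed.

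Levels are in TPM (transcript abundance adjusted for length and depth), and differences are on the log2(TPM + 1) scale, on which a value of 1 is 2-fold for an abundant transcript and changes of rare transcripts are understated. Tests used limma on the 20929 features that are at least 200 bases long and reach 1 TPM in 2 or more libraries, and a gene is called where its Benjamini-Hochberg adjusted p over all tested features is under 0.05. The etr1-1 libraries held an estimated 25.6 to 29.1 M fragments and the wild-type libraries 20.4 to 24.8 M. In the etr1-1 libraries 19655 to 19865 genes reached 1 TPM. The labels number the replicates and do not say whether they came from separate cultures, so the p-values measure the spread between these samples, which may be technical.

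The 2 mock libraries of etr1-1 were not alike. The library labelled etr1-1 mock 1 (mock 1 from here on) had a mean correlation across genes of 0.971 with the 3 wild-type ACC libraries, 0.956 with the wild-type mock libraries and 0.956 with the etr1-1 PFT-alpha libraries. The library labelled etr1-1 mock 2 (mock 2) had 0.985 with the PFT-alpha libraries of its own genotype, 0.958 with wild-type mock and 0.944 with wild-type ACC. The 2 PFT-alpha libraries correlated with each other at 0.988. On the second principal component, which held 19.7% of the variance, mock 1 lay at 32.2, within the wild-type ACC libraries (15.3 to 38.8), while the other etr1-1 libraries lay at -41.6 to -44.4.

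Genes that set the genotypes apart placed mock 1 with wild type. The other 3 etr1-1 libraries were separated from all 9 wild-type libraries by a gap of at least 1 log2 unit in 91 features, 87 of them higher in etr1-1. In 71 of the 91, mock 1 lay within the wild-type range, and in 90 it was nearer to the wild-type mean. With mock 1 included, 1 feature separated the genotypes by that gap. ETR1 itself measured 24.9 and 19.8 TPM in mock and 24.2 and 22.9 TPM with PFT-alpha, and since the allele is an amino acid change this level does not check the genotype label. Differences and tests below are therefore given also against mock 2 alone, where mock is a single library and its spread is taken from the other groups.

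The widest differences between the mock libraries, on the log2(TPM + 1) scale, were in AT5G10435, annotated as a transmembrane protein gene and higher in mock 1 by 5.54, and in AT3G26512, which was lower in mock 1 (-5.71). Among the 6 widest in each direction, HB1 and OSR1 (AT2G41230, spelled ORS1 in the deposited annotation) were higher in mock 1 and EM1 was higher in mock 2. OSR1, an ARGOS-family regulator of organ growth, measured 83.2 TPM in mock 1 and 6.39 TPM in mock 2, with 12.4 and 10.2 TPM under PFT-alpha. Its wild-type ACC libraries measured 96.9, 116 and 84.5 TPM, so mock 1 lay near them and mock 2 near the PFT-alpha libraries. HB1, a plant haemoglobin, measured 303 TPM in mock 1 and 23.02 TPM in mock 2, and 39.1 and 23.01 TPM under PFT-alpha. The seed transcript EM1, a late embryogenesis protein, went the other way, with 6.33 TPM in mock 1, 189.7 TPM in mock 2 and 173 and 213 TPM under PFT-alpha.

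Genes that respond to ethylene precursor in wild type gave the same picture. In wild type, limma called 170 features higher (0.812% of those tested) and 588 lower (2.81%) under ACC than under mock. The etr1-1 libraries enter these calls through the shared spread, and the count of 758 became 1994 without mock 1, 6 without wild-type ACC library 1 and 0 without the term for wild-type replicate 3 (1753 at an unadjusted p under 0.05). Of the 170, 148 were higher in mock 1 than in mock 2, with a median difference of 0.55. PFT-alpha minus mock 1 had a median of -0.65 over them, while PFT-alpha minus mock 2 had a median of -0.02, with 76 of 170 above 0. Over the 588 the medians were -0.57 for mock 1 minus mock 2, 0.63 for PFT-alpha minus mock 1 and 0.01 for PFT-alpha minus mock 2. A fit of the 9 wild-type libraries alone, added after the data had been seen, called 494 features higher and 1176 lower. Over these the medians of mock 1 minus mock 2 were 0.91 and -0.66, and those of PFT-alpha minus mock 2 were 0.02 and -0.01. Against mock 2, ACC-responsive genes thus stood close to 0 under PFT-alpha in etr1-1, beside a median of -0.03 over all tested features.

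**Figure D1:**
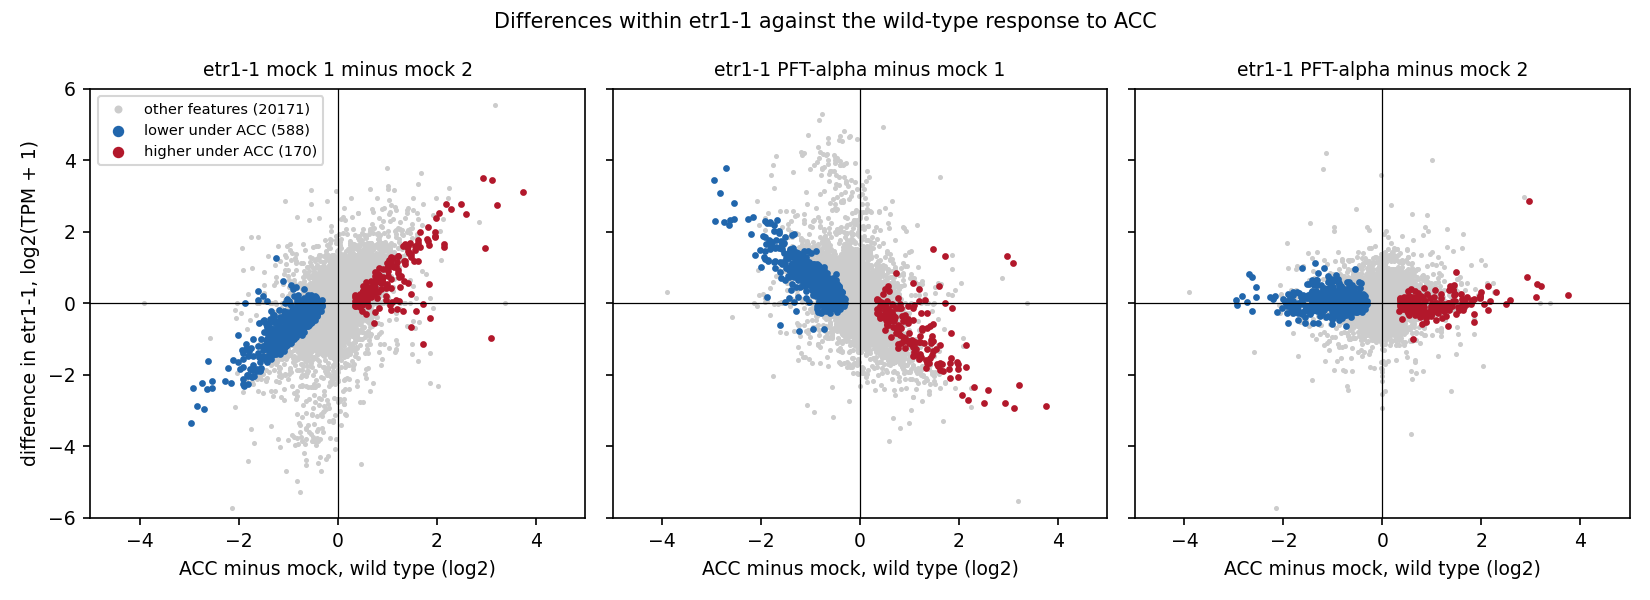
Difference between etr1-1 libraries (vertical axis, log2(TPM + 1)) against the ACC response of wild type (horizontal axis, log2(TPM + 1)) for each tested feature, with the 170 features called higher under ACC in red and the 588 called lower in blue. The panels show mock 1 minus mock 2, PFT-alpha minus mock 1 and PFT-alpha minus mock 2: the coloured points slope up in the first, slope down in the second and lie around 0 in the third.

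The plot of etr1-1 differences against the ACC response shows how the choice of mock sets the outcome. Across all tested features, the difference between the mock libraries correlated with the wild-type ACC response at 0.54 (Pearson, across genes, which are not independent). PFT-alpha minus mock 1 had a standard deviation of 0.57 over features and passed 2-fold in 1389. PFT-alpha minus mock 2 had a standard deviation of 0.30 and passed 2-fold in 240.

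Few genes were called. Against both mocks, 5 of 20929 features passed (0.0239%), 3 higher (0.0143%) and 2 lower (0.00956%) under PFT-alpha, and 1614 had an unadjusted p under 0.05 (7.71%). Against mock 2 alone, limma called 2 (0.00956%), both lower, and 711 had an unadjusted p under 0.05 (3.4%). Against mock 1 alone it called 1658. Of the 5 features called against both mocks, 2 reached 1 TPM in a single treatment group of etr1-1 and in no other library, so they passed the filter on low TPM only through the group where they are high and their calls support nothing. Whole seedlings hold many cell types, so more cells of a type and more RNA per cell cannot be told apart in any of these values.

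The protein-coding gene with the lowest adjusted p was AT2G44130, which encodes the kelch-repeat F-box protein KMD3. KMD proteins are known to mark type-B response regulators of cytokinin signalling and phenylalanine ammonia-lyase, the entry enzyme of phenylpropanoid synthesis, for breakdown. RIPK, a receptor-like cytoplasmic kinase of immune signalling that phosphorylates RIN4, was also called. AT3G13310 encodes a small J-domain (DnaJ-type chaperone) protein and missed the threshold narrowly. Stretches before the annotated starts of these genes (RefSeq, TAIR10.1) are printed 5′ to 3′ on the gene's strand, because they were the protein-coding genes with the lowest adjusted p. Capitals mark the W-box core TTGAC, the letters bound by WRKY transcription factors. For AT2G44130 (start of gene chr2:18253610, plus strand) the stretch chr2:18253360-18253496 covers positions -250 to -114 and ends where an exon of the antisense neighbour AT2G44140 begins. For RIPK (minus strand) it is chr2:2289637-2289886 and for AT3G13310 (minus strand) chr3:4311630-4311879, both -250 to -1.
AT2G44130: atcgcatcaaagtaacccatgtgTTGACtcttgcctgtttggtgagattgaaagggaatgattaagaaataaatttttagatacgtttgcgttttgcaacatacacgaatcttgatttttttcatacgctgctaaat
RIPK: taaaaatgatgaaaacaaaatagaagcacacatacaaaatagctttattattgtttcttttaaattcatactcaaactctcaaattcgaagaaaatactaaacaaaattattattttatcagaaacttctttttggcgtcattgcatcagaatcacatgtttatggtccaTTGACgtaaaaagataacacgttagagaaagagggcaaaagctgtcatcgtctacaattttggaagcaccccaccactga
AT3G13310: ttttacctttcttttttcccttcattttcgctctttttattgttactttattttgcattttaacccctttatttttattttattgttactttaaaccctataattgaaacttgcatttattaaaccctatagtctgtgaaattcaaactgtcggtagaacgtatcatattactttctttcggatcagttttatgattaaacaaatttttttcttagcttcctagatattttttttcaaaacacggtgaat

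AT2G44130 measured 98.2 and 126 TPM in mock 1 and mock 2 and 550.0 and 498 TPM in the PFT-alpha libraries. Both PFT-alpha libraries lay far above both mocks, and the mocks, which differ so much elsewhere, were close together. The gene rose by 2.23 (SE 0.24, limma adjusted p = 0.0155) against both mocks. Against mock 2 alone the difference was 2.05 (SE 0.28), with an adjusted p of 0.202 that no longer passes. The call was also lost without PFT-alpha library 1 (adjusted p = 0.343), without PFT-alpha library 2 (0.122) and, narrowly, without wild-type ACC library 2 (0.0514). AT2G44130 was not called without the term for wild-type replicate 3, nor in the 4 etr1-1 libraries alone (limma adjusted p = 0.8). The gene lies at chr2:18253610-18255054 on the plus strand, wholly inside the antisense gene AT2G44140 (strand use in the counting is not given in the sources used here). AT2G44140 measured 27.4 and 28.3 TPM in mock and 23.8 and 23.8 TPM with PFT-alpha, a lower level in both treatments and no higher under PFT-alpha.

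RIPK (AT2G05940, chr2:2287238-2289636, minus strand) measured 19.5 and 20.9 TPM in mock and 46.97 and 43.5 TPM with PFT-alpha. The groups did not overlap and each pair of libraries was tight. RIPK rose by 1.12 (SE 0.14, limma adjusted p = 0.03402), and against mock 2 alone the difference was 1.08 (SE 0.17, adjusted p = 0.414). RIPK was not called without the term for wild-type replicate 3, nor in the 4 etr1-1 libraries alone (limma adjusted p = 0.8). The call was made in 10 of 26 alternative fits, and the difference stayed between 1.07 and 1.18 in all of them. It was lost on leaving out PFT-alpha library 1 (adjusted p = 0.741), PFT-alpha library 2 (0.227), wild-type ACC library 2 (0.0877), wild-type mock library 1 (0.0789) or 2 (0.0796), and wild-type PFT-alpha library 1 (0.0919), 2 (0.0863) or 3 (0.0539).

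AT3G13310 (chr3:4310544-4311629, minus strand) measured 55.3 and 79.5 TPM in mock and 245 and 241 TPM with PFT-alpha. It was about as high in both PFT-alpha libraries, and mock 2 lay between mock 1 and them. The difference was 1.86 (SE 0.24, limma adjusted p = 0.0508) against both mocks and 1.6 (SE 0.27, adjusted p = 0.471) against mock 2. It passed in 8 of 26 alternative fits.

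In wild type, whose libraries enter the etr1-1 test only through the shared spread, these genes had higher values under PFT-alpha in every pair but did not pass the test. AT2G44130 measured 122, 131 and 45.9 TPM in wild-type mock 1 to 3 and 370.3, 301 and 141 TPM in wild-type PFT-alpha 1 to 3, a difference of 1.46 (limma adjusted p = 0.296). RIPK measured 25.6, 25.9 and 11.8 TPM in mock and 41.7, 42.6 and 20.6 TPM with PFT-alpha, a difference of 0.71 (limma adjusted p = 0.296). AT3G13310 measured 83.3, 81.7 and 28.2 TPM in mock and 181, 194 and 84.5 TPM with PFT-alpha, a difference of 1.3 (limma adjusted p = 0.296). In each gene the PFT-alpha library was above the same-numbered mock library in 3 of 3 pairs. The third replicate was the lowest of each wild-type group in all 3 genes. The etr1-1 differences were the larger ones, but the test of the difference between genotypes gave 0.77 (limma adjusted p = 0.695) for AT2G44130, 0.41 (0.695) for RIPK and 0.56 (0.696) for AT3G13310. With mock 2 alone it gave 0.59, 0.37 and 0.3, each with a limma adjusted p of 0.986. Wild-type ACC libraries measured 75.8, 91.7 and 60.7 TPM for AT2G44130, below the same-numbered mock in the first and second and above it in the third.

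Of the 12 features with a mean of at least 5 TPM and the widest gap upward (lowest PFT-alpha library minus highest mock library), 9 were protein-coding genes and 3 were annotated non-coding RNAs. Beside those above they included AT2G18150, a class III peroxidase gene, with 2.11 and 2.26 TPM in mock and 8.13 and 7.53 TPM with PFT-alpha, a difference of 1.47 against both mocks and 1.44 against mock 2. AT5G48540, annotated as related to receptor-like kinases, had 18.7 and 24.3 TPM in mock and 67.3 and 50.02 TPM with PFT-alpha. Its difference was 1.4 (limma adjusted p = 0.122) against both mocks and 1.22 against mock 2. Neither gene passed the test. IGMT3, an indole glucosinolate methyltransferase gene, had 4.11 and 5.06 TPM in mock and 14.8 and 10.6 TPM with PFT-alpha, and was 1.16 above mock 2. IAA5, an auxin-inducible Aux/IAA repressor gene, had 3.38 and 3.95 TPM in mock and 9.31 and 8.41 TPM with PFT-alpha, and was 0.99 above mock 2. RTFL13, which encodes a ROTUNDIFOLIA-like small peptide, had 0.31 and 4.96 TPM in mock and 11.5 and 11.1 TPM with PFT-alpha. The RTFL13 mocks lay far apart, and the difference of 2.14 against both shrank to 1.05 against mock 2 (limma adjusted p = 0.974). In wild type the differences were -0.08 for IAA5 and -0.11 for IGMT3, and the difference between genotypes did not pass in either gene (limma adjusted p = 0.695, and 0.986 with mock 2 alone). The IAA5 level of the etr1-1 PFT-alpha libraries was that of wild-type mock (8.29, 9.11 and 5.8 TPM).

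**Figure D2:**
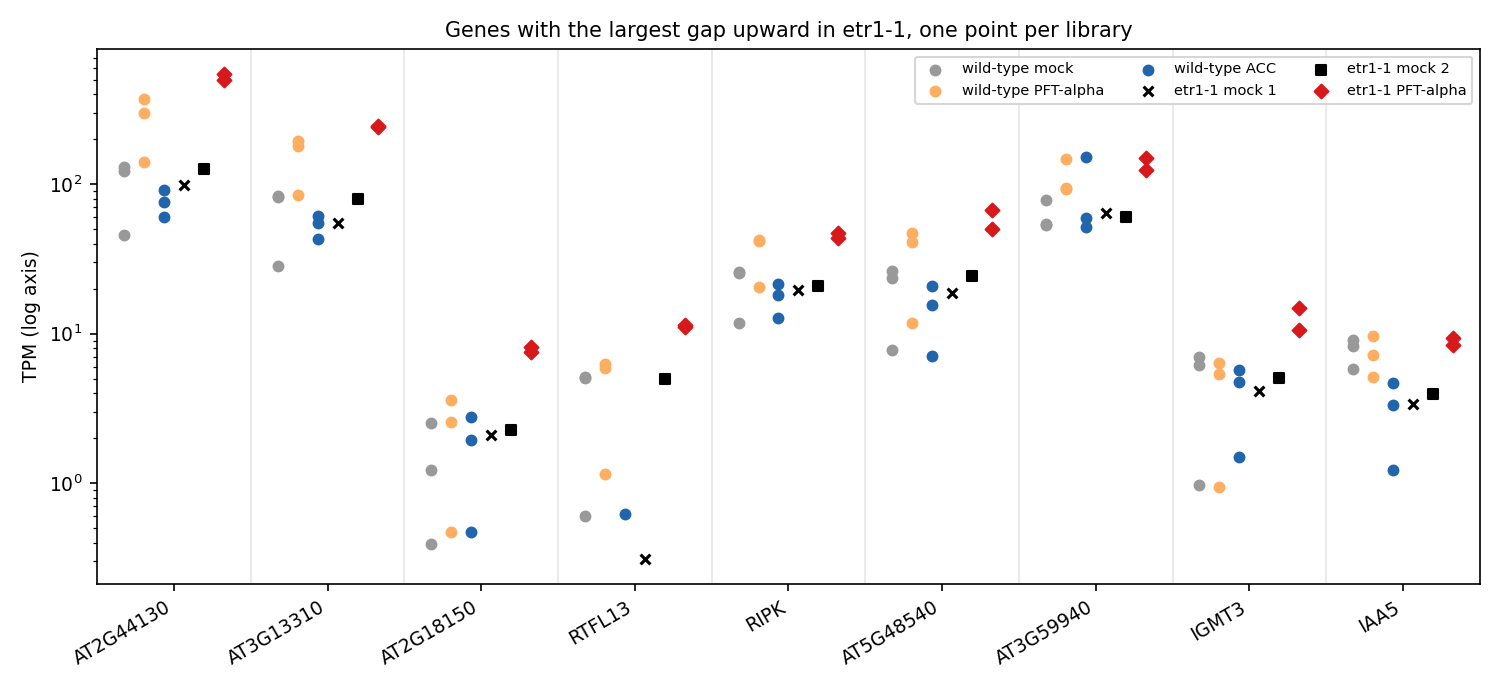
TPM in each of the 13 libraries (vertical log axis) for the 9 protein-coding genes with the widest gap upward in etr1-1, with symbols for genotype and treatment. The etr1-1 PFT-alpha libraries (red diamonds) lie above both etr1-1 mocks in every gene, by the rule that chose them. Wild-type PFT-alpha lies furthest above wild-type mock on average in AT2G44130, AT3G13310, RIPK, AT5G48540 and AT3G59940. In RIPK and AT5G48540 the points of these wild-type groups overlap. The 2 RTFL13 ACC libraries listed at 0 are not drawn.

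The plot of the 9 genes by library sets wild type beside etr1-1. Of the 12 features with the widest gap upward, 7 were higher under PFT-alpha in 3 of 3 wild-type pairs, beside 12.8% of all features with that mean level. Pairs go by replicate number alone, and some differences were small. AT2G18150, counted among the 7, had pair differences of 1.05, 0.01 and 0.08. Of the 79 features with a gap of at least 0.5, 26 were higher in 3 of 3 wild-type pairs (32.9%). The median ACC response of these 79 in wild type was -0.40.

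Other members of the KMD family were also higher under PFT-alpha than in mock 2, without passing the test. This list was drawn up after its values had been seen. KMD1 measured 138 and 164 TPM in mock and 247 and 222 TPM with PFT-alpha. KMD4 (AT3G59940) measured 64.2 and 60.01 TPM in mock and 149 and 125 TPM with PFT-alpha, a difference of 1.13 (limma adjusted p = 0.185) against both mocks and 1.17 against mock 2. KMD2 measured 182 and 121 TPM in mock and 176 and 161 TPM with PFT-alpha. Both KMD2 PFT-alpha levels were below mock 1 and above mock 2. All 4 members were above mock 2 and 3 of 4 were above mock 1. In wild type 4 of 4 were higher in 3 of 3 pairs, but KMD3 was the 1 member called. An annotated antisense RNA, AT3G09275, covers 87.7% of KMD4 and measured 111 and 117 TPM in mock and 227 and 206 TPM with PFT-alpha, and reads of the pair cannot be told apart without strand.

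Letters in the promoters of the 9 protein-coding genes were searched on both strands from 250 bases before to 50 bases after each start. The W-box core TTGAC was present in 6 of the 9 promoters, and in 50.5% of 27443 promoters of the same length. TGACG, the core of sites bound by TGA factors, was present in 4 of 9, against 23.1%. In RIPK and IGMT3 it shares letters with a W-box. The G-box CACGTG was in 0 of 9 (7.68% of all) and the abscisic acid element core ACGTG in 3 of 9 (26.7%). The degenerate EIN3 site ATGNANNT was in 4 of 9 (64.5%). With 9 genes these counts describe the promoters and say nothing about which factors act there.

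The third feature counted as called higher was the transcript of the microRNA gene ath-MIR5642a (AT3G06345). It measured 0 and 0.22 TPM in mock and 4.74 and 3.94 TPM with PFT-alpha. Outside the PFT-alpha libraries of etr1-1 its highest level was 0.88 TPM, so it passed the filter through those 2 libraries alone and its p is not given. Across the 9 wild-type libraries the transcript was above 0 in 1. PolyA libraries measure the host transcript and not the mature microRNA.

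Both features counted as called lower were short non-coding RNAs. AT4G07170 (234 bases, chr4:12354552-12354785, minus strand) measured 13.5 and 11.6 TPM in mock and was listed at 0 in both PFT-alpha libraries (limma adjusted p = 0.00478; 0.0465 against mock 2). In wild type it went the other way, with 3.9, 2.3 and 9.66 TPM in mock and 16.2, 8.46 and 29.6 TPM with PFT-alpha. It was the 1 feature called in the genotype by PFT-alpha interaction (0.00478% of those tested, adjusted p = 0.00223), and it was called there too with mock 2 alone (adjusted p = 0.0178). AT2G09775 (210 bases, chr2:19315192-19315401, plus strand) measured 3.93 and 6.55 TPM in mock and was listed at 0 in both PFT-alpha libraries and in all wild-type libraries. It passed the filter through the 2 mock libraries alone, and its p is not given. It lies over AT2G47000 on the other strand for 72.4% of its length. The call of AT4G07170 was lost without PFT-alpha library 1 (limma adjusted p = 0.109) and without PFT-alpha library 2 (0.0705). AT4G07170 was also not called without the term for wild-type replicate 3 (limma adjusted p = 0.837), nor in the 4 etr1-1 libraries alone (0.335). Without that term the interaction called 0 features. At 234 and 210 bases AT4G07170 and AT2G09775 are shorter than the 300-base fragments selected for the libraries. The depth estimate took 200 to 275 bases off each length for the fragment. Little or no length is left at these sizes, so their TPM may rest on few fragments, which were not counted.

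The other features with a wide gap downward did not pass the test. CYP91A2, a cytochrome P450 gene, measured 10.1 and 8.63 TPM in mock and 3.5 and 4.25 TPM with PFT-alpha, a difference of -1.09 against both mocks and -0.99 against mock 2. NDB3, an external NAD(P)H dehydrogenase gene of the mitochondrion, measured 6.5 and 7.88 TPM in mock and 2.57 and 3.5 TPM with PFT-alpha, a difference of -1.03 against both mocks and -1.15 against mock 2. Both were lower under PFT-alpha in 3 of 3 wild-type pairs, with differences of -0.63 and -0.27. EXT12, an extensin gene of the cell wall, measured 10.2 and 8.98 TPM in mock and 4.22 and 5.29 TPM with PFT-alpha, which is -0.8 against mock 2. The pectin methylesterase inhibitor-like gene AT5G46960 measured 101 and 48.5 TPM in mock and 24.5 and 26.04 TPM with PFT-alpha, and the cysteine protease gene AT1G29090 234 and 140.2 TPM in mock and 55.8 and 83.3 TPM with PFT-alpha. In the last pair mock 1 was the highest library. Of the 12 features with the widest gap downward, 3 were lower in 3 of 3 wild-type pairs, beside 18.4% of all features of that level. CYP91A2 is covered for 98.4% of its length by AT4G37432 on the other strand.

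Lists of genes by function put these single genes in context. The lists were chosen with earlier results of these data known, so counts of their members are a description and not independent support. Of 348 entries in 22 lists (340 distinct genes), 330 were tested. Limma called 0 of them against both mocks or against mock 2, while 66 and 34 entries had an unadjusted p under 0.05, beside 7.71% and 3.4% of all tested features. The lists are therefore described by their medians and by how many members had both PFT-alpha libraries above both mocks (13.4% of all tested features) or below both (24.6%). Medians over all tested features were -0.06 against mock 1 and -0.03 against mock 2, and 42.8% of features were above mock 2. The genotype by PFT-alpha interaction in limma called AT4G07170 alone, which is in none of the lists. Wild-type values set beside a list are therefore a description.

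**Figure D3:**
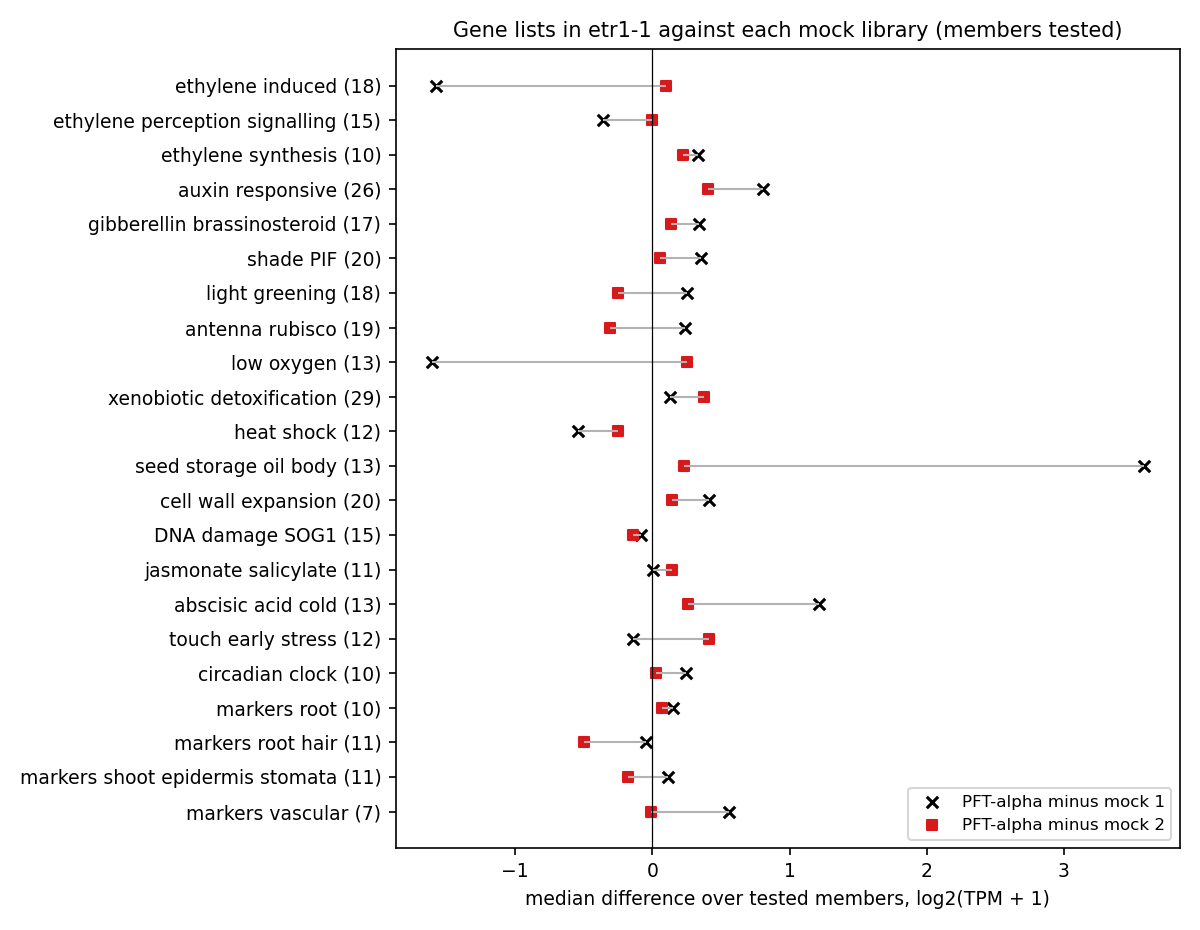
Median difference of each gene list (horizontal axis, log2(TPM + 1)) for PFT-alpha minus mock 1 (crosses) and PFT-alpha minus mock 2 (squares), joined by a line, with the number of tested members in brackets. The lists on ethylene response, low oxygen and seed reserves have the longest lines, and the squares lie between -0.50 and 0.42.

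Ethylene synthesis genes mostly lay slightly above mock 2 under PFT-alpha in etr1-1. ACC synthases make ACC and ACC oxidases turn it into ethylene. Of 10 tested genes, 9 were above mock 2, with a median of 0.22 (against mock 1 0.33). Both PFT-alpha libraries were above both mocks in 4, beside 13.4% of all tested features. These were ACS2 (2.62 and 3.27 TPM in mock, 5.97 and 3.45 TPM with PFT-alpha), ACS6, ACS7 and ACS11. ACS7 measured 8.04 and 6.31 TPM in mock and 12.9 and 8.92 TPM with PFT-alpha, and ACS11 1.72 and 1.84 TPM and 4.6 and 2.96 TPM. All 4 are ACC synthase genes at low levels, and 0 of 10 were higher in 3 of 3 wild-type pairs (12% of all tested features were, and 17.4% were lower). Of these 10, the interaction test in limma called 0.

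Receptor and signalling genes differed mainly between the mocks. ERS2, a receptor gene that ethylene induces, measured 46.9 and 11.04 TPM in mock and 10.8 and 13.4 TPM with PFT-alpha. RTE1, whose product acts on ETR1, measured 34.1 and 9.17 TPM in mock and 9.24 and 10.9 TPM with PFT-alpha. CTR1, the kinase that keeps the pathway off, measured 154 and 34.5 TPM in mock and 40.8 and 37.8 TPM with PFT-alpha. In all 3 genes mock 1 was the highest etr1-1 library by far and mock 2 was close to the PFT-alpha pair. Over the 15 genes of perception and signalling the median was -0.36 against mock 1 and -0.0043 against mock 2, and 7 were above mock 2. EIN4, EIN2, EIL1, EBF1 and EBF2 had both PFT-alpha libraries below both mocks (5 of 15, beside 24.6% of all tested features). Their differences against mock 2 ran from -0.08 for EIN2 to -0.21 for EIN4. EIN4, another receptor gene, measured 16.04 and 14.4 TPM in mock and 12.6 and 11.97 TPM with PFT-alpha.

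The 18 tested ethylene-induced genes had a median of -1.57 against mock 1 and 0.1 against mock 2. ERF1, a transcription factor gene directly downstream of EIN3, measured 7.31 and 0.59 TPM in mock and 0.91 and 1.09 TPM with PFT-alpha. HLS1, which is needed for the apical hook, measured 104 and 33.8 TPM in mock and 32.3 and 32.01 TPM with PFT-alpha. ARGOS, a relative of OSR1, measured 324 and 83.3 TPM in mock and 123 and 95.1 TPM with PFT-alpha. Mock 1 was above the other 3 libraries by far in each. Against mock 2, 14 of 18 were above 0, and the widest were OSR1 at 0.73 and ARGOS at 0.37. In wild type 6 of the 18 were higher under PFT-alpha in 3 of 3 pairs.

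Auxin-responsive genes had the largest share of members above both mocks among the 22 lists. Aux/IAA genes encode repressors of auxin signalling that auxin itself induces, SAUR genes encode small promoters of cell expansion, and GH3 enzymes conjugate auxin to amino acids. Of 26 genes, 25 were above mock 2, and 19 had both PFT-alpha libraries above both mocks (0 below both). Among all tested features 13.4% were above both mocks and 24.6% below both. The medians were 0.41 against mock 2 and 0.81 against mock 1. Under ACC in wild type the list had a median of -0.78, and 14 of 26 were called lower, beside 2.81% of all tested features. Mock 1 resembled ACC-treated wild type, and its part in the share above both mocks was not tested. SAUR10 measured 11.5 and 10.6 TPM in mock and 23.9 and 20.5 TPM with PFT-alpha, a difference of 0.94 (SE 0.17, limma adjusted p = 0.1902) against both mocks and 0.99 (adjusted p = 0.572) against mock 2. SAUR23 measured 24.7 and 22.8 TPM in mock and 37.5 and 37.2 TPM with PFT-alpha, and SAUR24 36.6 and 45.9 TPM and 73.01 and 66.7 TPM. Both pairs of libraries were apart in these genes, with tight replicates.

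Among the Aux/IAA genes, IAA6 measured 5.59 and 18.9 TPM in mock and 34.6 and 30.5 TPM with PFT-alpha. IAA19, a mark of hypocotyl growth, measured 106 and 184 TPM in mock and 221 and 203 TPM with PFT-alpha. In both, mock 1 was lowest, so the difference against mock 1 (2.35 and 0.99) was several times that against mock 2 (0.75 and 0.2). GH3.6 measured 16.2 and 23.7 TPM in mock and 39.7 and 32.6 TPM with PFT-alpha, and GH3.5 68.9 and 80.2 TPM and 116 and 95.97 TPM. IAA14 was the 1 gene below mock 2, at -0.12. SAUR19 to SAUR24 are near-identical copies whose reads the counting could have shared among them, so they are not independent of each other. In wild type the median of the list was 0.05, with 7 of 26 higher in 3 of 3 pairs and 3 lower, and the interaction test in limma called 0 of the 26. At an unadjusted p under 0.05 it had 7 of 26 with both mocks and 3 of 26 with mock 2 alone, beside 7.03% and 3.08% of all tested features.

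**Figure D4:**
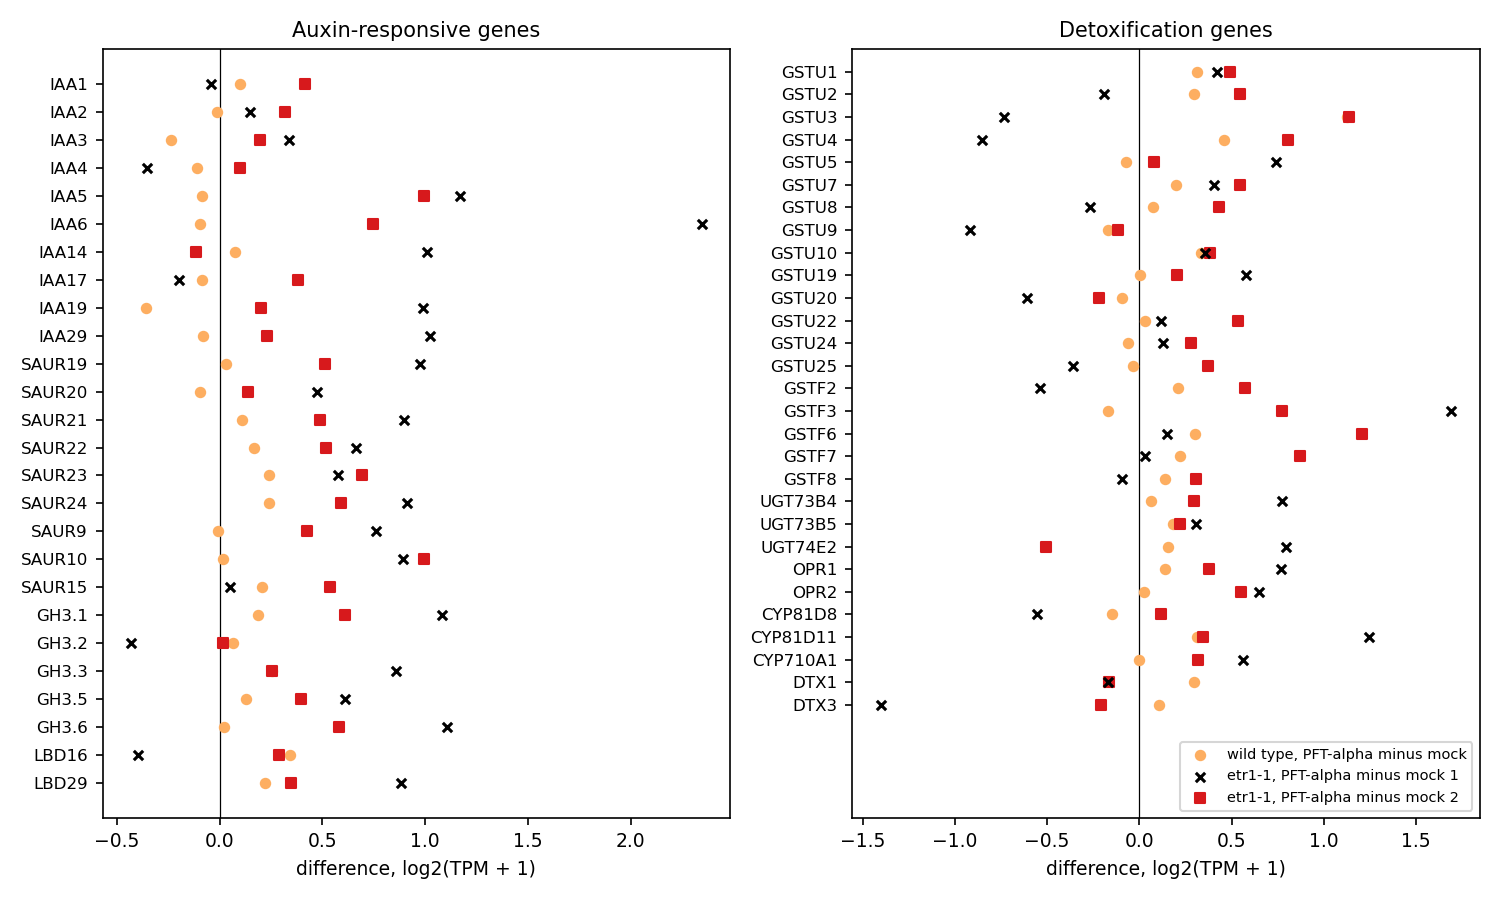
Difference under PFT-alpha (horizontal axis, log2(TPM + 1)) for each auxin-responsive gene (left) and each detoxification gene (right) in etr1-1 against mock 1 (crosses) and mock 2 (squares), and in wild type (orange circles). On the left 25 of 26 squares lie above 0, and on the right 24 of 29.

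The plot of auxin and detoxification genes shows the members one by one. Detoxification genes, which plants induce when they take up foreign compounds, were higher under PFT-alpha in etr1-1 against mock 2 in 24 of 29, with medians of 0.37 against mock 2 and 0.13 against mock 1. Both PFT-alpha libraries were above both mocks in 14 of 29 and below both in 3, beside 13.4% and 24.6% of all tested features. GSTF3, a phi-class glutathione transferase gene, measured 4.12 and 8.66 TPM in mock and 14.4 and 16.7 TPM with PFT-alpha. GSTU7, a tau-class gene, measured 102 and 92.5 TPM in mock and 139 and 133 TPM with PFT-alpha, and GSTU1 20.96 and 19.9 TPM and 27.4 and 29.5 TPM. The oxophytodienoate reductase genes OPR1 and OPR2 measured 51.7 and 68.04 and 25.4 and 27.2 TPM in mock and 88.2 and 89.4 and 39.2 and 41.6 TPM with PFT-alpha. These 5 genes separated the treatments with either mock.

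Other detoxification genes depended on the mock. GSTF6 measured 87.5 and 41.5 TPM in mock and 118 and 80.3 TPM with PFT-alpha, with 0.15 against mock 1 and 1.21 against mock 2. GSTU3 measured 5.58 and 0.8 TPM in mock and 3.54 and 2.44 TPM with PFT-alpha, so it was lower against mock 1 and higher, by 1.13, against mock 2. In wild type, GSTU3 was higher by 1.12, and 11 of 29 genes were higher in 3 of 3 pairs with 0 lower. GSTF3 gave -0.17 in wild type, and the interaction test in limma called 0 of the 29 genes. GSTU20 and the transporter gene DTX3 had both PFT-alpha libraries below both mocks, as did GSTU9.

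Early stress and touch genes were higher than in mock 2 in 11 of 12, with a median of 0.42 (-0.14 against mock 1). ZAT12, a zinc finger gene of oxidative stress, measured 17.1 and 10.1 TPM in mock and 22.3 and 21.1 TPM with PFT-alpha, above both mocks. TCH3, a calmodulin-like gene induced by touch, measured 214 and 113 TPM in mock and 242 and 158 TPM with PFT-alpha, where mock 1 overlapped with PFT-alpha. WRKY40 measured 24.5 and 10.9 TPM in mock and 19.04 and 12.9 TPM with PFT-alpha, between the mocks. SZF1, a CCCH zinc finger gene, measured 11.1 and 10.01 TPM in mock and 16.7 and 14.6 TPM with PFT-alpha, above both mocks. It was lower under PFT-alpha in 3 of 3 wild-type pairs, but the interaction test in limma called 0 of the 12 genes.

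Gibberellin and brassinosteroid genes had a median of 0.14 against mock 2 and 0.34 against mock 1. Both PFT-alpha libraries were above both mocks in 9 of 17, beside 13.4% of all tested features. GA20OX1, which makes a late precursor of active gibberellin, measured 12.9 and 19.3 TPM in mock and 29.4 and 23.1 TPM with PFT-alpha. DWF4, the rate-limiting enzyme of brassinosteroid synthesis, measured 20.8 and 29.6 TPM in mock and 34.9 and 32.3 TPM with PFT-alpha. DET2, an earlier enzyme of that route, had both PFT-alpha libraries below both mocks (30.5 and 24.9 TPM and 23.3 and 22.3 TPM). In wild type 1 of 17 was higher and 4 were lower in 3 of 3 pairs. The shade and PIF list lay near 0 against mock 2 (0.05), with 6 of 20 above both mocks and 3 below (13.4% and 24.6% of all tested features).

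Among 20 cell wall genes, 6 had both PFT-alpha libraries above both mocks, beside 13.4% of all tested features. The median was 0.14 against mock 2 (0.41 against mock 1). TCH4, a xyloglucan endotransglucosylase gene induced by touch and growth hormones, measured 21.6 and 38.3 TPM in mock and 57.8 and 65.3 TPM with PFT-alpha. XTH30, of the same family, measured 194 and 358 TPM in mock and 518 and 422 TPM with PFT-alpha. XTH20 measured 2.4 and 2.14 TPM in mock and 5.27 and 3.86 TPM with PFT-alpha, and was the 1 of these 3 that was also higher in 3 of 3 wild-type pairs. EXPA5, an expansin gene of elongating hypocotyls, measured 2.49 and 24.5 TPM in mock and 26.9 and 30.3 TPM with PFT-alpha, where mock 1 is the library that stands apart.

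Light-harvesting antenna and Rubisco genes were lower than in mock 2 in all 19 of 19, with a median of -0.31, but higher than in mock 1 by a median of 0.24. LHCB1.1, an antenna protein gene of photosystem II, measured 175 and 613 TPM in mock and 429 and 389 TPM with PFT-alpha, between the mocks. RBCS2B, a Rubisco small subunit gene, measured 3525 and 3344 TPM in mock and 2253 and 2919 TPM with PFT-alpha, and it and RBCS3B were the 2 members with both PFT-alpha libraries below both mocks. In wild type the list had a median of 0.18, and 16 of 19 were higher under PFT-alpha in 3 of 3 pairs. The interaction test in limma called 0 of them (1 at an unadjusted p under 0.05, and 2 with mock 2 alone). Of 18 greening genes, 15 were below mock 2. Both PFT-alpha libraries were below both mocks in 3 of the 18, beside 24.6% of all tested features. PORA and PORB, which make chlorophyllide in the light and accumulate in darkness, were among the 3. PORA measured 1642 and 1052 TPM in mock and 613 and 833 TPM with PFT-alpha.

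Low-oxygen genes followed mock 1. ADH1, alcohol dehydrogenase, measured 279 and 42.6 TPM in mock and 58.5 and 48.6 TPM with PFT-alpha, and PDC1, pyruvate decarboxylase, 177 and 33.2 TPM and 35.9 and 30.2 TPM. The median of 13 genes was -1.61 against mock 1 and 0.25 against mock 2, with 1 member, SUS4, below both mocks. In wild type 9 of 13 were higher under PFT-alpha in 3 of 3 pairs, with a median of 0.38.

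Seed reserve genes set mock 1 apart more than any other list. CRA1, a cruciferin storage protein gene, measured 183 and 2634 TPM in mock and 2962 and 2664 TPM with PFT-alpha. OLEO1, an oil body protein gene, measured 11.2 and 123 TPM in mock and 125 and 167 TPM with PFT-alpha. The 3 libraries other than mock 1 were close to each other in both. The median over 13 genes was 3.58 against mock 1 and 0.23 against mock 2, and the 7 genes with both PFT-alpha libraries above both mocks differed from mock 2 by 0.09 (CRA1) to 0.46 (EM6). SESA2, an albumin gene, measured 6.04 and 79.7 TPM in mock and 47.7 and 221 TPM with PFT-alpha, so the PFT-alpha libraries differed from each other. In wild type the median was -1.18, and 9 of 13 were lower in 3 of 3 pairs, but the interaction test in limma called 0 of the 13.

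Genes of abscisic acid and cold response were above both mocks in 9 of 13, beside 13.4% of all tested features. The medians were 0.26 against mock 2 and 1.21 against mock 1. KIN1, a cold and drought induced gene, measured 15.1 and 33.7 TPM in mock and 60.6 and 56.8 TPM with PFT-alpha, a difference of 0.78 against mock 2 (limma adjusted p = 0.974). RD29A, a dehydration-induced gene, measured 349.7 and 816 TPM in mock and 1349 and 946 TPM with PFT-alpha. HAI1, a phosphatase gene of abscisic acid signalling, measured 0.55 and 1.88 TPM in mock and 3.57 and 3.2 TPM with PFT-alpha. In each the PFT-alpha libraries were highest and mock 1 lowest. Wild type showed 0 of 13 higher in 3 of 3 pairs, and the interaction test in limma called 0 of the 13.

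Heat shock genes differed in direction. Of 12 tested, 7 were below mock 2 and 5 above, beside 56.8% of all tested features below. Both PFT-alpha libraries were below both mocks in 7 and above both in 1, beside 24.6% and 13.4% of all tested features. The medians were -0.25 against mock 2 and -0.54 against mock 1. HSP90.1, a chaperone gene, measured 10.1 and 8.09 TPM in mock and 6.14 and 6.35 TPM with PFT-alpha. HSFA2, a heat shock factor gene, measured 2.2 and 2.07 TPM in mock and 0.96 and 1.16 TPM with PFT-alpha. The exception was HSP17.6A, a small heat shock protein gene, with 14.99 and 32.5 TPM in mock and 52.4 and 57.4 TPM with PFT-alpha. Its difference was 0.74 against mock 2 and -0.2 in wild type, and the difference between genotypes did not pass (limma adjusted p = 0.695, and 0.986 with mock 2 alone).

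Genes of the DNA damage response were below mock 2 in 11 of 15 and above it in 3, by small amounts, beside 56.8% of all tested features below. In plants the transcription factor SOG1 takes the place that p53 holds in animals and induces repair and cell cycle genes. SOG1 itself measured 15.1 and 14.8 TPM in mock and 14.7 and 12.97 TPM with PFT-alpha. PARP2, a strong SOG1 target, measured 1.9 and 2.36 TPM in mock and 1.55 and 1.72 TPM with PFT-alpha. The median of 15 tested genes was -0.14 against mock 2 and -0.09 against mock 1. Both PFT-alpha libraries were below both mocks in 6 of 15 and above both in 1, beside 24.6% and 13.4% of all tested features. The cyclin-dependent kinase inhibitor gene SMR5 was not tested and was listed at 0 in both mocks and in PFT-alpha library 1, with 8.03 TPM in PFT-alpha library 2. SMR7, of the same family, measured 1.87 and 1.39 TPM in mock and 2.29 and 1.85 TPM with PFT-alpha, and most members stood below 5 TPM.

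Jasmonate and salicylate genes and the clock gave small differences. VSP2, a jasmonate-induced storage protein gene, measured 5.57 and 7.91 TPM in mock and 16.6 and 13.8 TPM with PFT-alpha, above both mocks. ICS1, the enzyme gene of salicylate synthesis, measured 26.7 and 18.3 TPM in mock and 11.9 and 16.7 TPM with PFT-alpha, below both. The list medians against mock 2 were 0.14 for jasmonate and salicylate and 0.02 for the clock. LHY, a morning gene of the clock, measured 33.2 and 41.05 TPM in mock and 31.7 and 31.4 TPM with PFT-alpha.

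Tissue markers varied with the comparison and were checked because whole seedlings can differ in the share of root and shoot. Root hair markers were below mock 2 in 9 of 11, with a median of -0.5, and near 0 against mock 1 (-0.05). Their summed level was 27.6 and 41.8 TPM in mock and 26.7 and 29.8 TPM with PFT-alpha, so mock 2 was the highest library. Both PFT-alpha libraries were below both mocks in 2 of the 11 root hair markers, beside 24.6% of all tested features. The 2 were COW1 and EXPA7, which act in root hair growth. EXPA7 measured 5.19 and 5.45 TPM in mock and 3.17 and 3.91 TPM with PFT-alpha. Root markers had a median of 0.07 against mock 2, with 5 of 10 on either side. The Casparian strip genes CASP1 and CASP2 lay above and the nitrate transporter gene NRT2.1 (11.8 and 25.2 TPM and 13.4 and 12.2 TPM) below mock 2. Shoot epidermis and stomata markers were below mock 2 in 9 of 11, with a median of -0.18 (0.11 against mock 1). Their summed level was 400 and 1256 TPM in mock and 913 and 970 TPM with PFT-alpha, between the mocks. Vascular markers had a median of -0.01 against mock 2. The part of tissue shares in the gene differences above was not tested.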

How the data were processed

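The deposited table held TPM per gene and library, named so per the file headers, and 5 unused columns of group means. The submitters' processing notes name TAIR10 and, without versions or roles, the tools RSEM, StringTie, HISAT2, HISAT, fastp and DESeq2. Depth was estimated from the steps of low TPM times length (82.6 to 88.0% of values within 0.15 of a whole fragment). By these steps a transcript of 1500 bases at 1 TPM had 19.9 to 28.7 fragments.

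Features under 200 bases (1734) were left out and 6724 were at 0 in all libraries. The log2(TPM + 1) values of all 13 libraries were fitted with limma 3.58.1 (R 4.3.3, trend, two-sided) with 5 group means and a term for the wild-type replicate 3 libraries, which stood apart. This model and its term were chosen with earlier results of these data known, so the fit was not fixed in advance. Against mock 2 alone, the library labelled etr1-1 mock 1 was left out. The fit was tested on simulated data. Tables and figures used Python 3.11.15, numpy 2.4.6, pandas 2.3.3 and matplotlib 3.10.9.

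Genes named singly were the 12 with the widest gap in each direction at a mean of 5 TPM or more in etr1-1, those called, the 6 with the widest difference between the mocks in each direction, and the members of the lists. Members and lists were chosen with earlier results of these data known, and 3 lists (29 genes) were added after values were seen. Of the list entries, 7 matched by locus only. Positions and promoters come from RefSeq TAIR10.1. Alternatives covered the pseudocount, filters, scalings, the replicate block and each left-out library.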

Additional observations from a re-analysis of the deposited data

Results flagged for a closer look

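The response of AT4G07170 to PFT-alpha differed between the genotypes: etr1-1 minus wild type was -5.38 on the log2(TPM + 1) scale (limma interaction, adjusted p = 0.00223), and -5.27 with mock 2 alone. This call depended on the term for wild-type replicate 3, without which the interaction called 0 features. With mock 2 alone AT2G09775 gave -2.92, but this transcript is listed at 0 in all 9 wild-type libraries and passed the filter through the 2 etr1-1 mock libraries alone, so the value restates the etr1-1 difference and supports nothing. Both are annotated non-coding RNAs of 234 and 210 bases, shorter than the fragments selected for the libraries. Both were listed at 0 in both etr1-1 PFT-alpha libraries, so the sizes depend on the added 1 TPM and may rest on few fragments.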

How the results depend on the processing

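The 5 genes called against both mocks became 3 with a pseudocount of 0.1, 3 with 5 TPM in 2 libraries, 3 with quantile normalization, 22 with no filter on low TPM, 8 with short features kept, 10 without the 3 wild-type replicate 3 libraries, 1 without their term and 0 in the 4 etr1-1 libraries alone (limma, 953 at an unadjusted p under 0.05). The 1 left without their term was AT2G09775, a non-coding RNA that passed the filter through the 2 etr1-1 mock libraries alone. Against mock 2 alone, 2 became 1 with a pseudocount of 0.1, with median-of-ratios scaling and without the replicate 3 term, 68 with no filter and 5 without the wild-type replicate 3 libraries. The interaction went from 1 to 6 with no filter and 0 without the term (limma, 328 at an unadjusted p under 0.05). The 758 ACC calls became 346 with no filter, 1670 in the 9 wild-type libraries alone (chosen after seeing the data) and 0 without the term (limma, 1753 at an unadjusted p under 0.05).

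Leaving out 1 library at a time gave 0 to 1658 calls against both mocks, 0 to 7 against mock 2, 1 to 1413 in the interaction and 6 to 1994 for ACC. The 1658 and 1413 came without mock 2, when the library labelled etr1-1 mock 1 is the lone mock, and the 0 against both mocks without either PFT-alpha library (limma; 563 and 1192 at an unadjusted p under 0.05). The 1994 ACC calls came without mock 1 and the 6 without wild-type ACC library 1. AT2G44130 was called in 19 of 26 alternatives (2.04 to 2.40) and RIPK in 10 of 26 (1.07 to 1.18).

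Replicate numbers did not pair the etr1-1 libraries by any label, and deviations of same-numbered etr1-1 libraries correlated at 0.13 across genes. With a replicate block, 3 genes were called against both mocks and 0 against mock 2 (590 at an unadjusted p under 0.05; limma), and 0 with the block and without mock 1. Among gene differences, 836 values stayed within the standard error of the reported fit and on the same side of the threshold. Another 69 moved further on the same side, 29 gained and 52 lost the call. Where either fit called the gene, 0 values changed sign. Changes of sign among uncalled values were not counted, and HB1 went from -1.46 against both mocks to 0.37 against mock 2. Of list medians 609 kept within the spread and 41 moved.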

Other observations

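Phenylpropanoid genes, listed after their values were seen because KMD proteins act on phenylalanine ammonia-lyase, gave a single member that stood out. MYB4, a repressor of that route, measured 63.6 and 48.9 TPM in etr1-1 mock and 129 and 110.1 TPM with PFT-alpha, a difference of 1.08 (limma adjusted p = 0.185) against both mocks and 1.27 (adjusted p = 0.471) against mock 2. In wild type it measured 65.1, 64.02 and 32.8 TPM in mock and 129, 118 and 71.6 TPM with PFT-alpha, higher in 3 of 3 pairs. Its relative MYB7 measured 56.9 and 35.3 TPM in mock and 55.1 and 51.1 TPM with PFT-alpha, which is 0.57 above mock 2 and -0.1 against mock 1. PAL1, an ammonia-lyase gene, measured 49.97 and 57.2 TPM in mock and 84.2 and 58.7 TPM with PFT-alpha, and in wild type it was lower under PFT-alpha in 3 of 3 pairs (-0.47). The median of the 16 genes was 0.04 against mock 2 and 0.43 against mock 1. For the 16, the interaction test in limma gave 0 calls.

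Type-A response regulators, which cytokinin induces and which were also listed after the fact, had a median of 0.22 against mock 2 and -0.51 against mock 1 over 8 tested genes. ARR5 measured 20.8 and 14.3 TPM in mock and 19.6 and 15.6 TPM with PFT-alpha, and ARR6 9.52 and 6.93 TPM and 6.82 and 5.77 TPM, below both mocks. Limma called 0 of the 8 and 0 of the 16. With the KMD genes, 5 of 28 tested genes in the added lists had an unadjusted p under 0.05 in limma against both mocks, beside 7.71% of all tested features. These lists were drawn up after their values had been seen, so that count supports nothing.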
